A study of Mus musculus with 18 samples.

Results

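The cytosolic ribosomal proteins were followed through 3 groups of mouse hearts: before the AAC operation, 4 weeks after it, and at 6 weeks with an Akt1 transgene switched on. A probe set was a member when the platform annotation gave it a single gene symbol that starts with Rps, Rpl or Rplp and a digit, leaving out the S6 kinases (Rps6k) and pseudogene symbols. That gave 104 of the 45265 probe sets of the chip pair, 98 on chip 430A and 6 on chip 430B, from 49 of the 18194 genes with such a probe set. Of these, 87 probe sets from 45 genes lay among the 60% of their chip with the highest mean signal and were tested. The other 17 lay below that limit, among them the only probe sets of Rpl14, Rpl39l, Rps4l and Rps16. Probe sets that name several genes, at least 1 of them ribosomal, were left out (112 in all), and Rpl3, Rpl5, Rpl10, Rpl36a, Rpl36al, Rplp1 and Rps27a had no probe set of their own. Of the 87 tested, 67 carry the suffix _x, _s or _a, with which the maker marks probe sets that match more than 1 transcript or may bind unrelated ones. Ribosomal protein genes have many processed pseudogenes, so the values of these probe sets are uncertain for the gene named.

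Ribosomal proteins and ribosomal RNA form the small and the large subunit, and the large subunit carries a stalk of acidic P proteins that recruits the translation factors. Most ribosomal protein mRNAs begin with a C followed by a run of pyrimidines, the TOP tract, through which mTOR complex 1, which Akt activates, raises their translation without needing more mRNA. A growing heart makes more ribosomes, and S6 kinase, switched on by the same complex, phosphorylates the small subunit protein Rps6.

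All mice were male and carried Tet-myrAkt1, an activated form of the kinase Akt1 behind a Tet-responsive promoter, with αMHC-tTA, whose promoter is active in heart muscle cells. The hearts before AAC also carried both transgenes. Each group held 3 hearts, and each heart was hybridised to chip 430A and chip 430B (18 arrays of 9 hearts). Hearts before AAC came from mice aged 8 weeks and those taken 4 weeks after AAC from mice aged 12 weeks. The third group is also labelled 12 weeks of age although it was taken 6 weeks after AAC, and the length of Akt activation is given as 3 weeks in the titles and 2 weeks in the descriptions. The series names pressure overload as the model and does not spell out AAC. The labels do not say whether tissue was pooled or whether the atria were included. Nothing in them says how the mice of a group were related, so p-values measure only the spread between these samples.

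Signals were MAS5 intensities, given here as log2(signal + 32), a scale on which a change at a low signal is understated. Akt1, the check of the labels, lay at 8.70 to 9.53 before AAC, 9.24 to 9.89 at 4 weeks and 11.37 to 12.68 with Akt on. All 10 heart muscle markers listed were tested, and their mean log2 signal was 14.43 to 14.54 before AAC, 14.12 to 14.24 at 4 weeks and 14.06 to 14.34 with Akt on, so every heart after AAC lay below every heart before it. Of their 18 probe sets 1 rose and 1 fell at 4 weeks, and 1 rose and 6 fell with Akt on against before AAC, with medians of −0.28 and −0.30. The atrial markers varied from heart to heart within each group, between 7.68 and 12.83. For β-actin, the signal of the 3′ control probe set over that of the 5′ one lay at 1.49 to 2.04 before AAC, 1.14 to 1.21 at 4 weeks and 1.04 to 1.22 with Akt on, and the Gapdh ratio at 1.07 to 1.32, 0.83 to 0.89 and 0.81 to 0.93. Both ratios were lower in each group after AAC than before (exact two-sided permutation test, p = 0.1, the smallest that 3 hearts against 3 allow). The mean log2 signal of the endothelial markers was 10.42 to 10.49 before AAC, 9.96 to 10.21 at 4 weeks and 9.95 to 10.01 with Akt on. That of the fibroblast markers was 11.01 to 11.30, 10.71 to 11.60 and 11.58 to 12.21. The part that the RNA ratios and these cell type markers have in the ribosomal protein values was not tested.

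The TOP tract is what ribosomal protein mRNAs are best known to share. Pyrimidine runs like it were looked for in the RefSeq promoter sequences (build GRCm38.p6), which held 43 of the 49 member genes. A run was counted where a C was followed by at least 7 bases that are each C or T, anywhere from 50 bases before to 50 bases after the annotated start. Such a run stood on the gene's own strand in 36 of 43 member genes (83.72%) and in 8645 of all 27025 genes (31.99%). By single promoters it was 9450 of all 32851 (28.77%). On the opposite strand it stood in 18.6% of member genes and 34.41% of all genes. Of the 13 member genes with a probe set that changed in any comparison, 2 had no promoter sequence there. Among tested members with a sequence, the run stood in 9 of the 11 that changed and in 24 of the 29 that did not. The 30 bases around the run, 5′ to 3′ with the run in capitals, are shown for Rps6, for 6 further subunit genes that changed and for the copies Rps27l, Rpl22l1 and Rpl3l. Rps4x, which changed, and Rplp0, which did not pass the test, hold no such run in the window. For them the 30 bases centred on the annotated start are shown.
Rps6, chr4:86857347-86857376, minus strand: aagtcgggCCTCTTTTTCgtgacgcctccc
Rpl13a, chr7:45128722-45128751, minus strand: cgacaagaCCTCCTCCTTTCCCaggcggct
Rpl38, chr11:114668572-114668601, plus strand: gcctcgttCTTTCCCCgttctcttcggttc
Rplp2, chr7:141447639-141447668, plus strand: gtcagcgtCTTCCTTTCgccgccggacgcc
Rps9, chr7:3704028-3704057, plus strand: cgccttgtCTCTCTTTgtctcgggcctgag
Rps15, chr10:80292448-80292477, plus strand: agcccgtaCTTCCTTTTCCgagtaaccgcc
Rps24, chr14:24490709-24490738, plus strand: tgagcggtCCTCTTTTCCTCCTCTCCagct
Rps27l, chr9:66946056-66946085, plus strand: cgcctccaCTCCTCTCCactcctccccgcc
Rpl22l1, chr3:28805503-28805532, plus strand: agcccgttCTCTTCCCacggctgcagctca
Rpl3l, chr17:24727846-24727875, plus strand: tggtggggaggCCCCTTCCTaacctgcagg
Rps4x, chrX:102189377-102189406, minus strand: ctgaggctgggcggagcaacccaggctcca
Rplp0, chr5:115559452-115559481, plus strand: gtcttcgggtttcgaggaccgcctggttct
A run in these letters is a description of the reference sequence and was not tied to any measurement in these hearts. A TOP tract begins at the first base of the mRNA, whereas runs were counted anywhere in the window. Relative to the annotated start, the runs shown begin from −36 (Rps24) to 31 (Rpl3l), with that of Rpl38 at 0. Whether a run is a TOP tract was not tested.

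**Figure D1:**
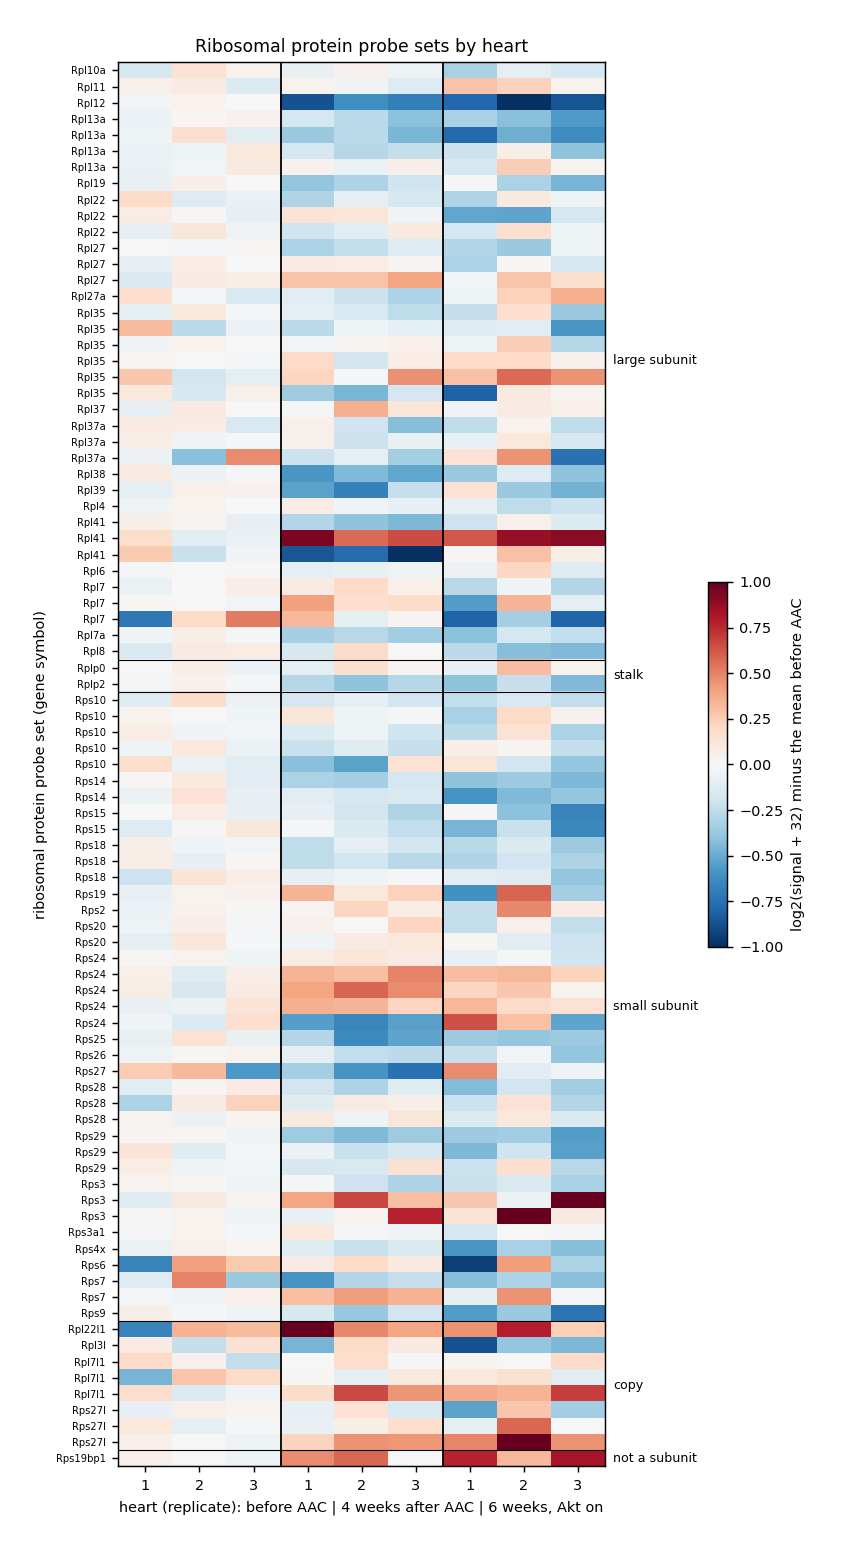
Each row is 1 of the 87 tested ribosomal protein probe sets and each column 1 heart; colour gives log2(signal + 32) minus the mean of the 3 hearts before AAC, and colours end at 1 in either direction. Most rows stay pale, the Rpl41 rows hold both deep red and deep blue at 4 weeks, and Akt-on hearts 1 and 3 are bluer than heart 2.

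The first comparison sets hearts 4 weeks after AAC against hearts before it. The mice were also older, 12 against 8 weeks, and no group of 12 weeks without AAC was measured. Age, operation and pressure overload differ together here and cannot be told apart. The ribosomal protein mRNAs changed little: 7 of 87 probe sets passed the test (limma, adjusted p under 0.05), 2 of which rose and 5 fell. That is 8.05% of them, beside 4.43% of all 27083 probe sets tested, of which 2.75% rose and 1.68% fell. Among the members on chip 430A, 82 of the 87, it is 8.54% beside 7.23% of all 430A probe sets. The 7 belong to Rpl12, Rpl38, Rpl41, Rps24 and Rps29. The median log2 change was −0.06 over the members and −0.04 over all probe sets, and the 95% interval of 81 of the 87 lay within a 2-fold change either way. The 3 hearts of a group did not overlap those of the other in 40 of 87 members (46%), 13 higher and 27 lower at 4 weeks, beside 29.3% of all probe sets (13.1% higher, 16.2% lower). Under quantile scaling of the arrays 3 members passed (3.45%, beside 3.73% of all probe sets) and all 3 rose, so the direction of the majority depends on the scaling. Without before-AAC replicate 2 or 3, or without 4-week replicate 1, limma called 0 of 87, with 14, 19 and 20 at an unadjusted p under 0.05, and 0.709%, 0.436% and 1.16% of all probe sets passed. With 4-week replicates 1 and 3 averaged, 1 of 87 passed (1.15%, beside 1.84% of all probe sets).

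Of the large subunit, 37 probe sets from 19 genes were tested, and 1 rose and 4 fell at 4 weeks (13.5%, beside 4.43% of all probe sets). Rpl12, which sits at the base of the stalk, was at 8.21, 8.27 and 8.24 before AAC and at 7.37, 7.63 and 7.56 at 4 weeks. All 3 of its 4-week hearts lay below all 3 hearts before AAC. It fell by 0.72 on the log2 scale (SE 0.18, limma adjusted p = 0.0479), and the call was lost when any 1 of these 6 hearts was left out. Rpl38, whose loss in mice is known to alter the translation of Hox mRNAs, was at 14.35, 14.21 and 14.25 before AAC and at 13.68, 13.83 and 13.75 at 4 weeks. Its groups did not overlap, and it fell by 0.51 (SE 0.10, limma adjusted p = 0.0213), a call that was lost without any 1 of these hearts but 4-week replicate 3. Rpl39, a small protein of the exit tunnel, changed by −0.48 and did not pass (limma adjusted p = 0.145). Rpl13a, which is also known to act outside the ribosome as a silencer of inflammatory mRNAs, had changes of −0.37 to 0.01 over its 4 probe sets, and none passed.

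The gene with the largest changes, Rpl41, did not move in 1 direction. Rpl41 encodes a very short, basic peptide of the large subunit and had 3 probe sets past the filter. Of these, 1454639_x_at had a mean signal of 130.4, just above the limit of 127.3 on chip 430A, and the brightest had 21852. Probe set 1422623_x_at was at 12.98, 12.70 and 12.74 before AAC and at 13.75, 13.37 and 13.46 at 4 weeks, and it rose by 0.72 (SE 0.13, limma adjusted p = 0.016). Probe set 1455578_x_at was at 14.62, 14.59 and 14.49 before AAC and at 14.28, 14.16 and 14.11 at 4 weeks, and it fell by 0.38 (limma adjusted p = 0.047). Probe set 1454639_x_at was at 7.80, 7.31 and 7.49 before AAC and at 6.68, 6.76 and 6.39 at 4 weeks, and it fell by 0.92 (SE 0.22, limma adjusted p = 0.038). In each of them the hearts before AAC and at 4 weeks did not overlap, upwards in the first and downwards in the other two. Each fall was lost without any 1 of these 6 hearts, and the rise was lost without 4-week replicate 1 and without replicate 2 or 3 of the hearts before AAC. With the 3 probe sets averaged, the change of Rpl41 was −0.19 (limma adjusted p = 0.36), so these values give no direction for the gene.

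The small subunit had 39 probe sets from 19 genes tested, of which 1 rose and 1 fell at 4 weeks (5.13%, beside 4.43% of all probe sets). Rps24, a protein mutated in some families with Diamond-Blackfan anaemia, was at 12.28, 12.05 and 12.29 before AAC and at 12.60, 12.79 and 12.68 at 4 weeks on probe set 1428530_x_at. Every 4-week heart lay above every heart before AAC, and it rose by 0.48 (SE 0.12, limma adjusted p = 0.038). The other 4 probe sets of Rps24 did not pass, with 3 above 0 and 1, 1436500_at, at −0.58. Rps29, a zinc-binding protein of the small subunit, was at 14.44, 14.43 and 14.38 before AAC and at 14.06, 13.97 and 14.06 at 4 weeks on probe set 1415833_x_at. These groups too did not overlap, and it fell by 0.38 (limma adjusted p = 0.0375). Leaving out any 1 of the 6 hearts compared ended the calls of Rps24 and Rps29. Rps6 did not pass, at 7.46, 8.54 and 8.39 before AAC and 8.22, 8.33 and 8.23 at 4 weeks (change 0.13, limma adjusted p = 0.871), with replicate 1 before AAC far below the other two.

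The stalk proteins did not pass at 4 weeks. Rplp0, the stalk's anchor and a common reference gene, was at 13.27, 13.34 and 13.21 before AAC and at 13.18, 13.44 and 13.30 at 4 weeks, a change of 0.03 with a 95% interval of −0.23 to 0.29. Rplp2 was at 14.03, 14.09 and 14.02 before AAC and at 13.76, 13.64 and 13.76 at 4 weeks, a change of −0.32 (limma adjusted p = 0.0708) although its groups did not overlap.

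Among the copies of ribosomal protein genes, 8 probe sets from Rpl3l, Rpl7l1, Rpl22l1 and Rps27l were tested and 0 passed at 4 weeks (limma), with 3 at an unadjusted p under 0.05. Rpl22l1, the paralogue of Rpl22, had the largest of these changes, 0.64 (95% interval 0.06 to 1.23, limma adjusted p = 0.186). It was at 9.36, 10.37 and 10.34 before AAC and at 11.09, 10.50 and 10.42 at 4 weeks, with replicate 1 lowest in the one group and highest in the other. Rpl22 itself changed by −0.18 (limma adjusted p = 0.488) on its probe set with the highest signal. Rpl3l, the form of Rpl3 found in heart and skeletal muscle, changed by −0.06 (95% interval −0.48 to 0.35).

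**Figure D2:**
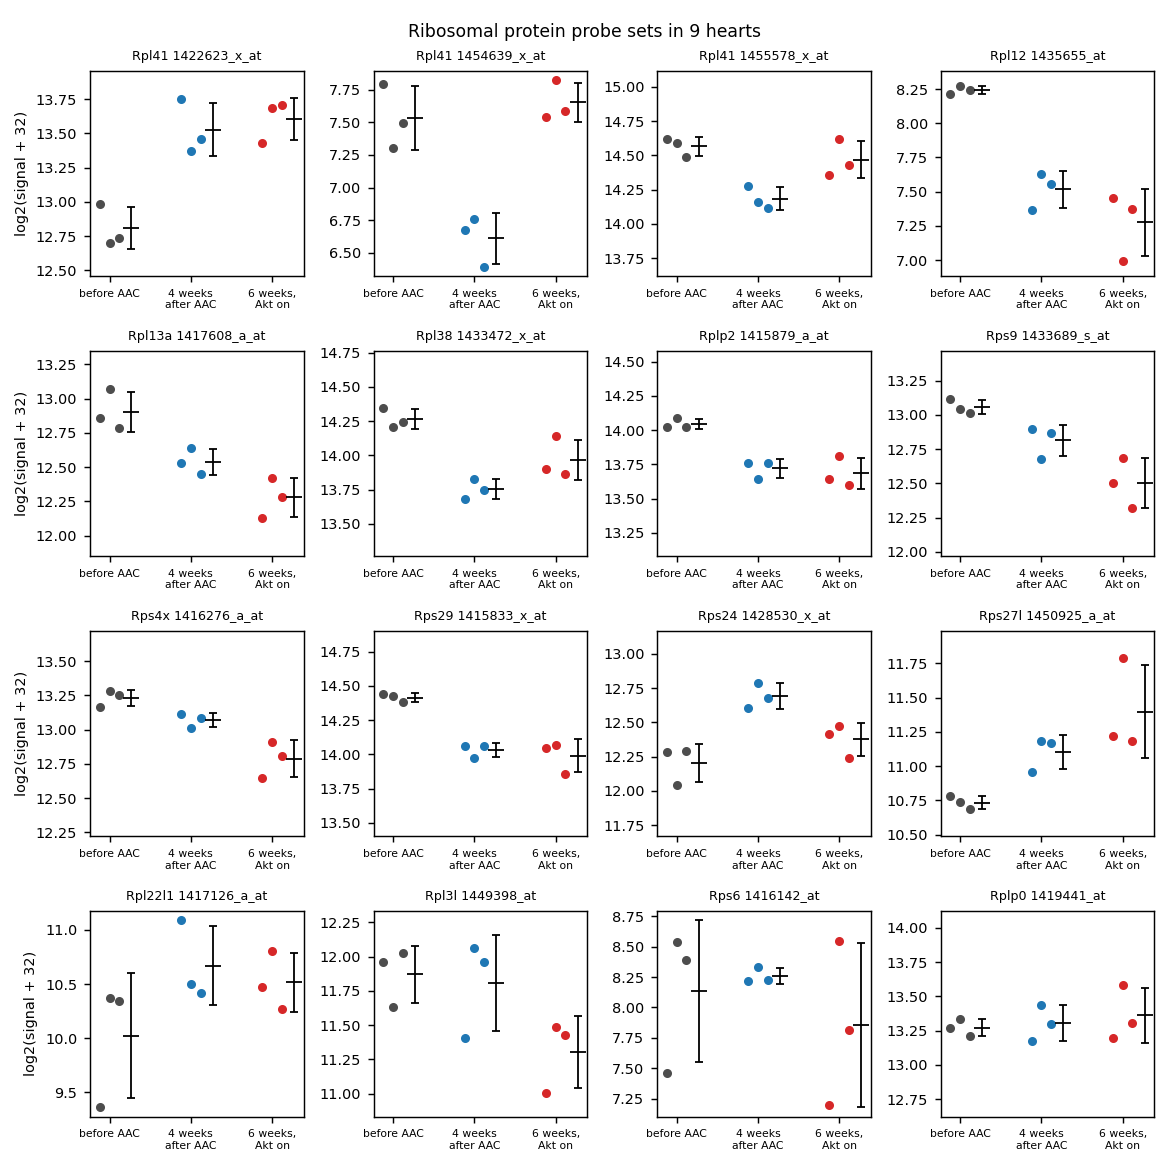
Points give log2(signal + 32) of 16 ribosomal protein probe sets in single hearts (grey before AAC, blue 4 weeks after AAC, red 6 weeks with Akt on), with the group mean ± SD (n = 3) beside them; each panel has its own axis range. Of the Rpl41 panels 1 goes up and 2 go down at 4 weeks, while Rpl12 and Rps9 lie lower in all Akt-on hearts than in any heart before AAC.

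The second comparison asks what changed once Akt was on, against hearts 4 weeks after AAC, when 2 more weeks had also passed. Very little of the set moved. Of the 87 probe sets 1 passed, a rise, which is 1.15% beside 2.54% of all probe sets tested, of which 1.08% rose and 1.46% fell. The median log2 change was −0.05 over the members and 0.02 over all probe sets, and 82 of the 87 intervals lay within a 2-fold change. The groups did not overlap in 22 members (25.3%), 8 higher and 14 lower with Akt on, beside 20.6% of all probe sets (10.8% higher, 9.79% lower). Quantile scaling left 0 of 87 past the test (limma), with 17 at an unadjusted p under 0.05, beside 2.29% of all probe sets past it. Time after AAC and Akt activation differ together between these groups and cannot be told apart.

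The probe set that passed was again Rpl41 1454639_x_at, whose mean signal lay just above the limit of the filter. It was at 6.68, 6.76 and 6.39 at 4 weeks and at 7.54, 7.82 and 7.59 with Akt on. All Akt-on hearts lay above all 4-week hearts and it rose by 1.04 (SE 0.22, limma adjusted p = 0.0318). Before AAC it had lain between 7.31 and 7.80. The call was lost without before-AAC replicate 3, without any single 4-week heart, and without Akt-on replicate 2 or 3. Of the other Rpl41 probe sets, 1455578_x_at changed by 0.29 (limma adjusted p = 0.153) and 1422623_x_at by 0.08 (limma adjusted p = 0.82).

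Of the 39 small subunit probe sets 32 lay below 0 in this comparison (82.1%). That stands beside 46.9% of all probe sets and 59.6% of those on chip 430A with a mean signal over 5000. Of the 39, 0 passed (limma, 8 at an unadjusted p under 0.05), and their median was −0.08. Of the 37 of the large subunit 16 lay below 0 (43.2%), with a median of 0.03. The difference between the subunits was not tested. Rps19, the gene most often mutated in Diamond-Blackfan anaemia, was at 12.06, 11.83 and 11.95 at 4 weeks and at 11.11, 12.31 and 11.38 with Akt on. Akt-on replicate 2 was the highest of these hearts and replicates 1 and 3 the lowest, and the change of −0.35 did not pass (limma adjusted p = 0.497). Without Akt-on replicate 2 the change was −0.70 and the adjusted p 0.0334, the only member called in that fit. Rpl3l was at 11.41, 12.06 and 11.96 at 4 weeks and at 11.00, 11.48 and 11.43 with Akt on, a change of −0.50 (95% interval −0.92 to −0.09, limma adjusted p = 0.197). Rpl11, which binds the p53 regulator Mdm2 when ribosome assembly is disturbed, changed by 0.23 (limma adjusted p = 0.336). Rps27, a zinc finger protein, changed by 0.67 (limma adjusted p = 0.186), and Rps6 by −0.40 (95% interval −1.12 to 0.31).

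**Figure D3:**
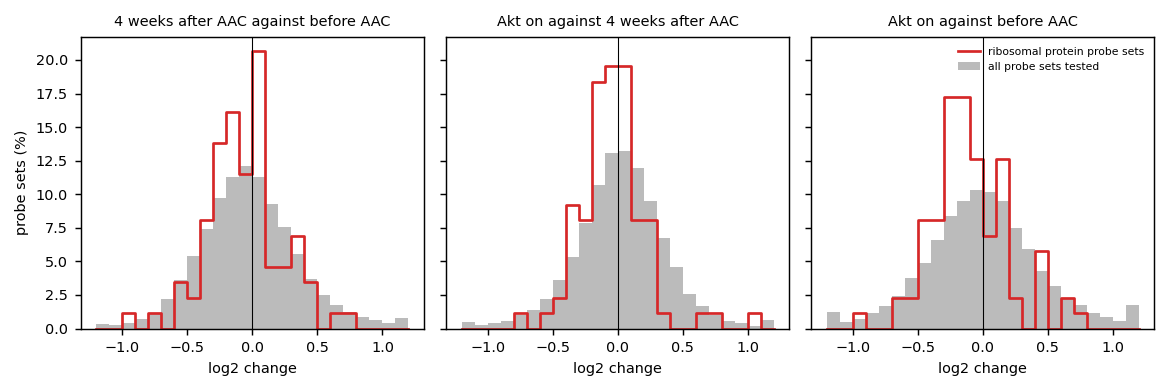
Log2 changes of the 87 ribosomal protein probe sets (red outline) and of all 27083 probe sets tested (grey), as the percentage of probe sets in bins of 0.1; the outermost bins also hold values beyond −1.2 and 1.2. The red outline is narrower than the grey in each panel and has its median at −0.06, −0.05 and −0.15.

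The third comparison, hearts at 6 weeks with Akt on against hearts before AAC, shares its groups with the other two. Age, operation, pressure overload and Akt activation differ together in it and cannot be told apart. Here 14 of 87 probe sets from 11 genes passed, 3 of which rose and 11 fell. That is 16.1%, beside 13.4% of all probe sets tested. In the downward direction it is 12.6% of members beside 6.51% of all, and in the upward direction 3.45% beside 6.86%. On chip 430A alone it is 15.9% of members beside 18.6% of all, in either direction. The median log2 change was −0.15 over the members and −0.01 over all probe sets, and 80 of 87 intervals lay within a 2-fold change. The groups did not overlap in 33 members (37.9%), 9 higher and 24 lower with Akt on, beside 32.1% of all probe sets (15.7% higher, 16.4% lower). Under quantile scaling 7 passed, 4 of which rose and 3 fell, and the median was −0.04. That is 8.05% of members beside 13.7% of all probe sets, so the share lay above that of all probe sets under the main scaling and below it under this one. Without before-AAC replicate 2 or 3, or Akt-on replicate 3, the count was 5, 7 and 9 (5.75%, 8.05% and 10.3%, beside 7.3%, 6.26% and 7.81% of all probe sets). The calls of Rpl12, Rps9, Rpl13a 1417608_a_at, Rpl41 1422623_x_at and Rps29 1415833_x_at held without any single heart, and the other 9 were all lost without before-AAC replicate 2.

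In the large subunit 1 probe set rose and 3 fell (10.8%, beside 13.4% of all probe sets). Rpl12 was at 7.46, 7.0 and 7.38 with Akt on, below all 3 hearts before AAC, and it fell by 0.97 (SE 0.18, limma adjusted p = 0.00664). These Akt-on values of a dim probe set lay near the limit of the filter. Rpl13a fell on 2 of its 4 probe sets. Probe set 1417608_a_at went from 12.86, 13.07 and 12.79 before AAC to 12.53, 12.64 and 12.45 at 4 weeks and 12.13, 12.42 and 12.29 with Akt on, with no overlap between neighbouring groups, and fell by 0.63 against before AAC (SE 0.12, limma adjusted p = 0.00645). Probe set 1455485_x_at fell by 0.44 (limma adjusted p = 0.0184), and the other 2 changed by −0.18 and 0.04. Averaged over its 4 probe sets the gene did not pass. Rpl41 1422623_x_at, at 13.43, 13.68 and 13.71 with Akt on, rose by 0.80 (limma adjusted p = 0.00323), while the other 2 probe sets of that gene changed by −0.10 and 0.12.

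In the small subunit 0 probe sets rose and 7 fell, from Rps4x, Rps9, Rps14, Rps15 and Rps29. That is 17.9%, beside 13.4% of all probe sets and 18.6% of all on chip 430A in either direction. Of all probe sets 6.86% rose and 6.51% fell. Rps9, whose bacterial relative is known for its part in decoding accuracy, was at 13.12, 13.04 and 13.01 before AAC, at 12.90, 12.68 and 12.86 at 4 weeks and at 12.50, 12.69 and 12.32 with Akt on. The Akt-on hearts all lay below the hearts before AAC, with replicate 2 within the 4-week range, and it fell by 0.55 (SE 0.12, limma adjusted p = 0.0105). Rps4x, an X-linked gene, was at 13.16, 13.28 and 13.25 before AAC and at 12.65, 12.91 and 12.81 with Akt on, without overlap, and fell by 0.44 (limma adjusted p = 0.0154). Rps14 fell by 0.41 and 0.47 on its 2 probe sets (limma adjusted p = 0.0178 and 0.012), the one gene with several probe sets that all passed. Rps29 fell by 0.42 and 0.40 on 2 of 3 probe sets and Rps15 by 0.44 on 1 of 2. Rps3, which also has roles in DNA repair, changed by −0.23 on its probe set with the highest signal (limma adjusted p = 0.173) and by 0.40 and 0.42 on the others.

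Of the stalk, Rplp2 was at 13.64, 13.81 and 13.60 with Akt on, below all hearts before AAC, and fell by 0.36 (limma adjusted p = 0.0263). Rplp0 was at 13.20, 13.58 and 13.30 and changed by 0.09 (95% interval −0.17 to 0.35). The call of Rplp2 was also lost without before-AAC replicate 1 or 3 and without Akt-on replicate 3.

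Among the copies 1 of 8 probe sets rose and 0 fell (12.5%, beside 13.4% of all probe sets). Rps27l, a p53 target that is close in sequence to Rps27, was at 10.78, 10.74 and 10.69 before AAC, at 10.96, 11.19 and 11.17 at 4 weeks and at 11.22, 11.79 and 11.19 with Akt on, on probe set 1450925_a_at. Each group lay above the one before it without overlap, by a narrow gap between 4 weeks and Akt on, and the rise over both steps was 0.67 (SE 0.16, limma adjusted p = 0.0183). Its other probe sets changed by −0.20 and 0.16 and did not pass, and the gene's mean did not pass. Rpl3l was lower in all Akt-on hearts than in any heart before AAC, with a change of −0.57 (SE 0.19), and missed the threshold (limma adjusted p = 0.0701). Rpl7l1 changed by 0.07 on 1426386_at, and Rpl22l1 by 0.49 (95% interval −0.09 to 1.07). The third rise was that of Rps19bp1 on chip 430B, which binds Rps19 and is not a ribosomal subunit. It was at 8.06, 8.01 and 7.95 before AAC and at 8.78, 8.33 and 8.83 with Akt on, without overlap, and rose by 0.64 (SE 0.19, limma adjusted p = 0.0408).

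**Figure D4:**
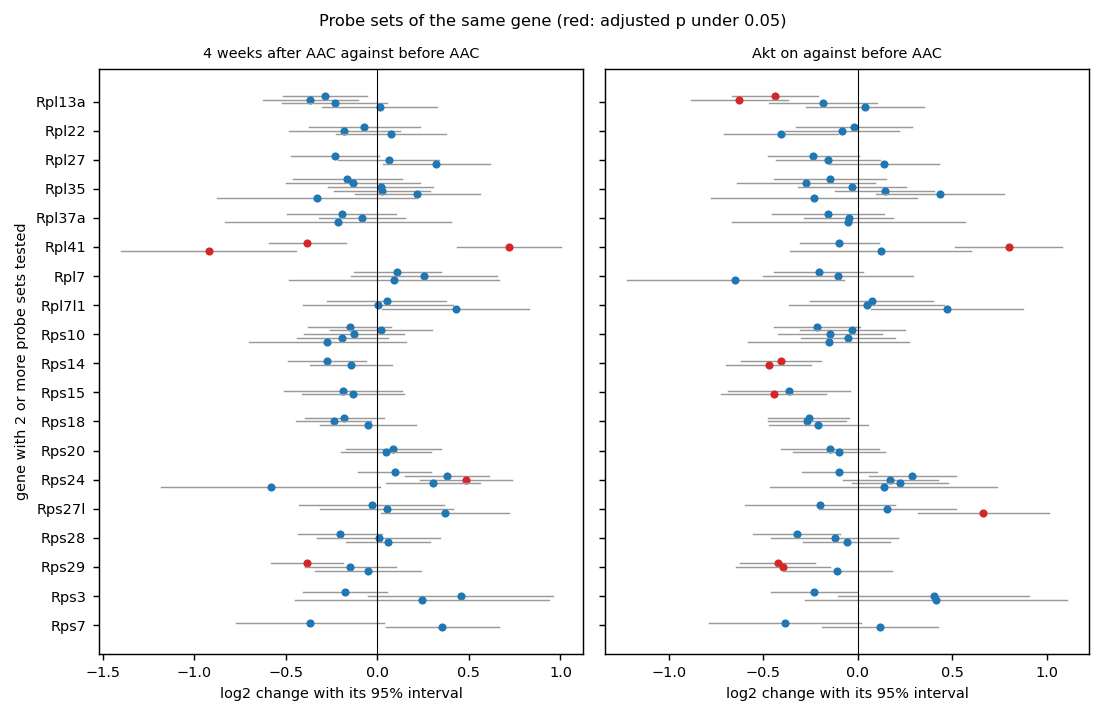
Log2 changes with 95% intervals of every tested probe set of the 19 genes that had 2 or more, 4 weeks after AAC (left) and at 6 weeks with Akt on (right) against before AAC; within a gene the probe set with the highest signal is on top, and red marks an adjusted p under 0.05. Rpl41 has red points on both sides of 0 at 4 weeks, and Rps14 is the gene whose points are all red on the right.

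Probe sets of the same gene often disagreed. Of the 19 genes with 2 or more tested, 11 had changes of both signs at 4 weeks, 7 in Akt-on against 4-week hearts and 8 in Akt-on hearts against before AAC. The median range between probe sets of a gene was 0.33, 0.21 and 0.39 on the log2 scale in the 3 comparisons. Of the 20 members without the suffixes _x, _s and _a, tested among such probe sets alone, 2 passed in Akt-on hearts against before AAC. That is 10%, beside 11.7% of all such probe sets. Of these 20, 0 passed at 4 weeks against before AAC and 0 with Akt on against 4 weeks (limma, 6 and 3 at an unadjusted p under 0.05). Of all such probe sets 3.08% and 2.39% passed there. Of the probe sets with several symbols, which are no members, 95 were tested. In the 3 comparisons 3, 0 and 15 of these passed (limma, 17 at an unadjusted p under 0.05 in the second). That is 3.16%, 0% and 15.8% of them, beside 4.43%, 2.54% and 13.4% of all probe sets tested. All 15 of the third fell.

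The following 5 genes had several probe sets and no call, and were chosen for description after their values were seen. Their values are log2 changes. Rpl35, a protein at the exit of the peptide tunnel, had 6 probe sets tested, with changes of −0.33 to 0.22 at 4 weeks, −0.14 to 0.22 with Akt on against 4 weeks and −0.27 to 0.44 against before AAC. Rps10, a protein of the small subunit's head, had 5, with −0.27 to 0.02, −0.06 to 0.14 and −0.21 to −0.03. Rps18, which lies at the contact between the subunits, had 3, with −0.24 to −0.05, −0.16 to −0.03 and −0.27 to −0.21. All changes of Rps18 were below 0 and none passed. Rps28 had 3 probe sets, with −0.20 to 0.06, −0.13 to −0.12 and −0.32 to −0.06. Rpl7, a protein of the large subunit, had 3 probe sets, with 0.09 to 0.25 at 4 weeks, −0.74 to −0.32 with Akt on against 4 weeks and −0.65 to −0.11 against before AAC. Over all large subunit probe sets tested the log2 changes ran from −0.92 to 0.72, −0.74 to 1.04 and −0.97 to 0.80 in the 3 comparisons. Over those of the small subunit they ran from −0.58 to 0.48, −0.40 to 0.72 and −0.55 to 0.42.

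Most members are bright, and bright probe sets as a whole also lay lower after AAC. On chip 430A 47 members had a mean signal over 5000, with median changes of −0.15 at 4 weeks and −0.21 with Akt on against before AAC. All 601 probe sets of that range, members included, had −0.18 and −0.23. In the third comparison 23.4% of the bright members passed, beside 30.8% of all 601. The 19 members with a signal of 1000 to 5000 had medians of 0.06 and −0.08, beside 0.05 and 0.02 for all 2799 of that range, and the 16 below 1000 had −0.24 and −0.00494 beside −0.07 and −0.01 for 10176. Whether the shift of bright probe sets arose in the tissue or on the arrays was not tested.

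The Akt-on hearts also differed among themselves. The median member lay −0.21, 0.04 and −0.24 from the mean before AAC in Akt-on replicates 1, 2 and 3, −0.08, −0.08 and −0.05 in the 4-week hearts, and −0.02, 0.03 and −0.01 in the hearts before AAC. In the median over all 87, Akt-on replicate 2 thus lay above the hearts before AAC while the other two were lower. Over the 47 bright members alone it lay at −0.13, within the range of the 4-week hearts (−0.15 to −0.10) and below the hearts before AAC (−0.02 to 0.03), with replicates 1 and 3 at −0.25 and −0.30. Without replicate 2 the median change was −0.24 against before AAC, with 17 members past the test, 3 of which rose and 14 fell. Since replicate 2 had the highest median, a lower median without it follows from that choice. The 17 are 19.5% of members, beside 8.32% of all probe sets in the same fit. Without replicate 1 the median change was −0.10 and 16.1% of members passed, beside 15.1% of all. Without replicate 3 these were −0.08 and 10.3%, beside 7.81%. The probe sets set beside the members in these fits were not matched for signal. Within groups the members varied less than most probe sets, with a median SD of 0.14 beside 0.24 for all, and of 0.11 beside 0.15 among those with a 430A signal over 5000.

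**Figure D5:**
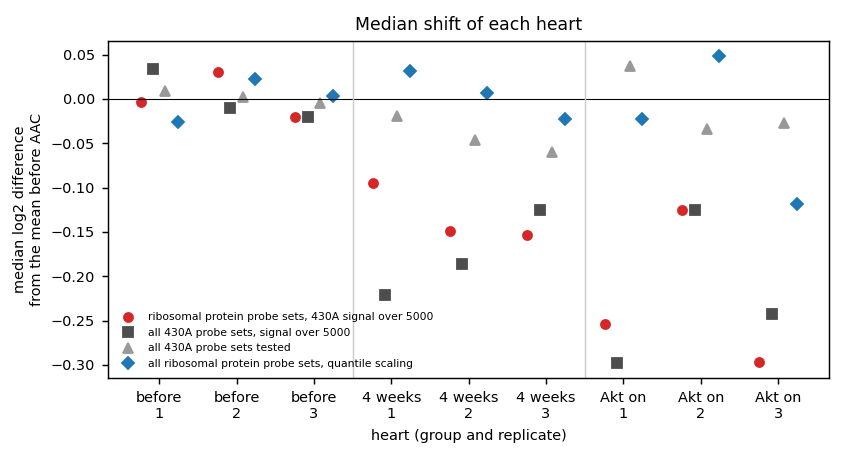
For each heart, the median log2 difference from the mean before AAC of the bright ribosomal protein probe sets (red circles), of all 430A probe sets of the same signal range (dark squares), of all 430A probe sets tested (grey triangles) and of all members after quantile scaling (blue diamonds). Red circles and dark squares go down together after AAC, to −0.30 in single Akt-on hearts, while the grey triangles and, but for Akt-on replicate 3, the blue diamonds stay within 0.06 of 0.

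Other parts of the translation machinery were read from lists. Fau, whose product is cleaved into the ribosomal protein Rps30, changed by −0.45 at 4 weeks (limma adjusted p = 0.0649) and fell by 0.61 with Akt on against before AAC (limma adjusted p = 0.00896). Of the ribosome biogenesis list 66 genes (116 probe sets) were tested, with 2 rises and 1 fall at 4 weeks, 0 changes between 4 weeks and Akt on (limma, 18 at an unadjusted p under 0.05) and 9 rises and 3 falls against before AAC. These are 2.59%, 0% and 10.3% of the list, each below the 4.43%, 2.54% and 13.4% of all probe sets. Ncl, the nucleolar protein nucleolin, rose by 1.68 at 4 weeks (SE 0.22, limma adjusted p = 0.00559) and by 1.15 with Akt on against before AAC. The 1 fall at 4 weeks was that of Noc4l, by 0.76 (limma adjusted p = 0.0398). Polr1d, a subunit of RNA polymerases I and III, rose by 0.75 at 4 weeks on chip 430B and by 0.84 to 1.13 on 3 probe sets in the third comparison. Taf1a, a factor of RNA polymerase I initiation, fell there by 1.17.

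Of the other TOP mRNAs 20 genes (45 probe sets) were tested. At 4 weeks 1 probe set fell, Eef2, the elongation factor that moves the ribosome along the mRNA (−0.39, limma adjusted p = 0.0341). With Akt on against 4 weeks 3 fell, Hnrnpa1 by 1.02 and 0.90 and Eif4b by 0.51. Against before AAC 1 rose, Eif2s3x (1.25), and 6 fell, from Eef2, Eef1d, Hnrnpa1 and Eif4b. The shares of this list were 2.22%, 6.67% and 15.6%. In the S6 kinase and mTOR list (13 genes, 28 probe sets) Mtor fell by 0.66 and Eif4e, the cap-binding protein, rose by 0.53 at 4 weeks. In the second comparison 0 passed (limma, 5 at an unadjusted p under 0.05). In the third Rps6ka3 rose by 0.79, Larp4 by 0.64 and Eif4e by 0.47, and Larp1, which binds the TOP tract, fell by 0.59. The shares here were 7.14%, 0% and 14.3%. The list also holds Rps6ka genes, and whether its members acted with mTOR complex 1 in these hearts was not tested.

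The mitochondrial ribosomal proteins, the group most like this one, had 76 genes and 136 probe sets tested. At 4 weeks 6 rose and 1 fell (5.15%, beside 8.05% of the cytosolic set), with a median change of 0.07. With Akt on against 4 weeks 3 rose and 0 fell, and against before AAC 18 rose and 3 fell (15.4%, beside 16.1%), with a median of 0.08 beside −0.15. Mrps23 rose by 1.18 and 1.07 against before AAC at 4 weeks and with Akt on, and Mrps11 by 1.17 in the latter. The 1 fall at 4 weeks was that of Mrpl20, by 1.18 (limma adjusted p = 0.0133). Mrpl20 rose by 0.98 with Akt on against 4 weeks. The difference between the cytosolic and the mitochondrial set was not tested.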

How the data were processed

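RNA of samples taken as 9 hearts was measured on Affymetrix chips 430A and 430B. Per the labels, the authors used the Ultraspec-II system for RNA and a standard Affymetrix biotin labelling, and per the submitters' processing notes the values come from MAS5. The deposited values are intensities on a linear scale, with the trimmed mean of chip 430A about 500.2 and that of chip 430B 122.5 in every array. MAS5 version and target are not given in the sources used here.

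Arrays of a chip were set to their mean trimmed mean (2% off each end), log2(signal + 32) was taken, and control probe sets and the dimmest 40% of each chip were left out. In R 4.3.3 with limma 3.58.1, 3 group means were fitted per chip (lmFit, eBayes with trend) and 3 two-sided contrasts tested, adjusted by Benjamini-Hochberg over both chips. Rose, fell and changed mean an adjusted p under 0.05. The scripts were tested on simulated data. The number of arrays limits the precision. Symbols came from GEO's platform annotation, promoters from RefSeq. Sequences of mouse chromosome 18 are not reported here.

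Members named with values were those that passed (up to 10 each way in each comparison), paired copies and a fixed set of well-known proteins, on the probe set with the highest signal. The rule for other lists was to name up to 3 genes that passed in each comparison, and in the third comparison some lists have more named. The members and lists were chosen with earlier results of these data known, so they are not independent evidence. Alternatives covered scaling, pseudocount, chip scale, filter, unit, variance model, samples, block, adjustment and atrial markers. After the data were seen, counting probe sets with several symbols was added.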

Additional observations from a re-analysis of the deposited data

How the results depend on the processing

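The counts of members past the test were 7, 1 and 14 in the 3 comparisons (4 weeks against before AAC, Akt on against 4 weeks, Akt on against before AAC). They became 3, 0 and 7 with quantile scaling (3.45%, 0% and 8.05%, beside 3.73%, 2.29% and 13.7% of all probe sets). With no filter they were 1, 0 and 11 of 104 (0.962%, 0% and 10.6%, beside 1.36%, 0.986% and 6.42%). With 1 probe set per gene they were 4, 0 and 8 of 45 (8.89%, 0% and 17.8%, beside 4.57%, 4.1% and 14.7% of all genes). The mean of a gene's probe sets gave 2, 0 and 7 of 45 (4.44%, 0% and 15.6%, beside 5.42%, 4.19% and 14.8%). Without _x, _s and _a probe sets they were 0, 0 and 2 of 20 (0%, 0% and 10%, beside 3.08%, 2.39% and 11.7%). Without the variance trend they were 3, 1 and 7 (3.45%, 1.15% and 8.05%, beside 2.76%, 1.62% and 11.3%). A robust fit gave 26, 13 and 35 (29.9%, 14.9% and 40.2%, beside 20.4%, 14.2% and 27.5%). The second count was also 0 in the brightest 40% of each chip and when only the 2 groups compared were fitted. Of all probe sets 3.92% and 0.967% passed in these fits. Averaging 4-week replicates 1 and 3, whose descriptions carry the same number, gave 1, 0 and 15. That is 1.15%, 0% and 17.2%, beside 1.84%, 1.37% and 14.6% of all probe sets. Counting probe sets with several symbols gave 10, 1 and 29 of 182 (5.49%, 0.549% and 15.9%, beside 4.43%, 2.54% and 13.4% of all). Leaving out each heart in turn gave 0 to 8, 0 to 1 and 5 to 17 (0% to 9.2%, 0% to 1.15% and 5.75% to 19.5%). In these fits 0.436% to 6.64%, 0.882% to 2.37% and 6.26% to 15.1% of all probe sets passed. Without Akt-on replicate 2 the 1 member called in the second comparison was a fall. Settings with 0 calls (limma) had 6 to 20 members at an unadjusted p under 0.05 in the first comparison and 3 to 17 in the second. No further scaling, a smaller and a larger pseudocount, chip 430B at the scale of chip 430A, adjustment within each chip and the atrial markers as a covariate kept each count within 1.5 times. With the replicate number as a block the counts were 2, 0 and 10 (2.3%, 0% and 11.5%, beside 2.07%, 1.59% and 11.1% of all probe sets). The deviations of samples of the same number from their group means gave r from −0.18 to 0.10 over 9 pairs. Those of different numbers gave −0.14 to 0.16. Deviations within a group of 3 depend on each other, so these values cannot show whether the number pairs samples. Rpl41 1422623_x_at, which rose at 4 weeks, had a change of −0.19 with the opposite sign when its gene's probe sets were averaged (limma adjusted p = 0.36). Of the 22 single calls, 2 held under every alternative that tested them and without every heart: Rpl12 and Rps9 in Akt-on hearts against before AAC. Each was tested under 16 of the 17 alternatives. The probe set of Rpl12 is dim and was not tested in the brightest 40%. That of Rps9 carries the suffix _s and was not tested where such probe sets were left out. The cause of the other changes was not tested.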
